A study of Homo sapiens with 6 samples.

Results

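The aldo-keto reductases are enzymes that use NADPH to turn aldehydes and ketones into alcohols. Their substrates include lipid and sugar aldehydes, retinaldehyde, steroid hormones, prostaglandins and drugs with a carbonyl group. Several members are classic targets of NRF2, the transcription factor that switches on detoxifying genes under oxidative or electrophilic stress, and high levels of the AKR1B10 and AKR1C enzymes are known from tumour cells that tolerate carbonyl-containing drugs. The members were all probe sets whose platform gene symbol was one of 10 family names, AKR1A1, AKR1B1, AKR1B10, AKR1C1, AKR1C2, AKR1C3, AKR1C4, AKR1D1, AKR7A2 and AKR7A3. That gave 13 probe sets for 8 genes, out of 22215 non-control probe sets and 11963 genes in all. AKR1A1 and AKR1B1 had no probe set listed in the annotation used here and were not analysed here.

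T98G and U87MG are both established human glioblastoma cell lines, and each was profiled on 3 Affymetrix expression arrays. The arrays hold total RNA of cells grown in the same serum-containing medium, and the labels name no treatment, time point or genetic change for either line. Per the labels, T98G cells undergo apoptosis with bortezomib, a proteasome inhibitor, and with G5, an inhibitor of ubiquitin isopeptidases, and partly resist the necrosis that G5 causes, whereas U87MG cells resist that apoptosis and undergo the necrosis. Each group is a single cell line, so a difference between the groups is a difference between 2 lines and not between 2 drug responses. Levels below are the deposited log2 values, differences are T98G minus U87MG on the log2 scale, and ± gives the SD over the 3 arrays of a line. Nothing in the labels tells if the replicates came from separate cultures, so errors and p-values cover only the spread between these arrays, which may be technical. In bulk RNA of this kind, fewer cells with a transcript and less transcript per cell cannot be told apart.

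Over all probe sets, correlations ran from r = 0.990 to 0.997 within a line and from 0.934 to 0.939 between the lines. U87MG replicate 3 had the lowest mean of the poly-A control probe sets, 5.30, against 6.10 and 6.84 on the other U87MG arrays and 6.25 to 6.63 on the T98G arrays. Of 11 glioma and astrocyte markers, VIM, an intermediate filament gene, was at 14.59 ± 0.05 in T98G and 14.85 ± 0.05 in U87MG, while the astrocyte gene S100B was at 4.13 ± 0.16 in T98G and 4.23 ± 0.08 in U87MG, just above the bacterial tryptophan control probe sets, taken here as having no target, which read 3.32 to 4.03. Each marker was read on its probe set with the highest mean. By that reading, of the 11, 0 were called higher by limma (1 at an unadjusted p under 0.05) and 3 lower in T98G (5 at an unadjusted p under 0.05). The called ones were the stem cell filament gene NES (6.34 ± 0.20 in T98G, against 8.89 ± 0.24 in U87MG), the brain aldolase gene ALDOC (difference -1.64) and the glutamate transporter gene SLC1A3 (-1.04). CD44, higher at an unadjusted p only, had differences of 0.23 to 1.45 over its 8 probe sets, of which 7 were not called. The 7 hepatocyte markers, fixed because liver is the main site of AKR1C4 and AKR1D1, had 0 genes called in either direction by limma, with 1 higher and 0 lower in T98G at an unadjusted p under 0.05, and differences of -0.18 to 0.38. The measured leukocyte (2) and endothelial (3) markers had 0 genes called by limma and 0 at an unadjusted p under 0.05. Of 5 epithelial markers 1 was called, the keratin gene KRT18, at 12.05 ± 0.06 in T98G and 6.57 ± 0.09 in U87MG. At an unadjusted p under 0.05, 2 of the 5 were higher and 1 was lower in T98G. The lower one was EPCAM (difference -0.89, limma adjusted p = 0.00246), below 2-fold. CDH1 and KRT19 had differences of -0.04 and 0.07, so the epithelial markers did not move together.

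The family split into genes far higher in T98G and genes that differed by less than 2-fold between the lines. AKR1B10, AKR1C1, AKR1C2 and AKR1C3 were higher in T98G on all of their 7 probe sets, by 3.24-fold to 14.5-fold, and no T98G array came within 1.57 log2 units of a U87MG array on any of these probe sets. AKR1C4, AKR1D1, AKR7A2 and AKR7A3 differed by less than 2-fold, from log2 -0.33 to 0.59 over their 6 probe sets. Of these, AKR1D1 was under 4.03, the highest control reading, on all 6 arrays, so its level was not measured. The probe sets were picked by gene symbol, but the family was chosen from the differences between T98G and U87MG seen earlier on these same arrays, so the values are a description, without a test of the members. A probe set was called where limma gave a Benjamini-Hochberg adjusted p under 0.05 over all 22215 probe sets together with at least a 2-fold difference. By that label 7 of the 13 members were higher in T98G, where 6.33% of all probe sets were, and 0 were lower, where 5.93% of all probe sets were. Of the members 2 were lower in T98G at an unadjusted p under 0.05, and also 2 at an adjusted p under 0.05. In all, 3 members had a limma adjusted p under 0.05 but less than a 2-fold difference. They were the AKR7A2 probe sets, lower in T98G, and AKR1C4, higher in T98G. The arrays of the lines did not overlap for 12 of the 13, with 8 higher and 4 lower in T98G, where 49.1% of all probe sets did not overlap (26.1% higher and 23.0% lower in T98G). The median difference was 1.70 over the 13 members and 0.01 over all probe sets. Since the contrast was known when the family was picked, nothing is read from these shares.

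**Figure D1:**
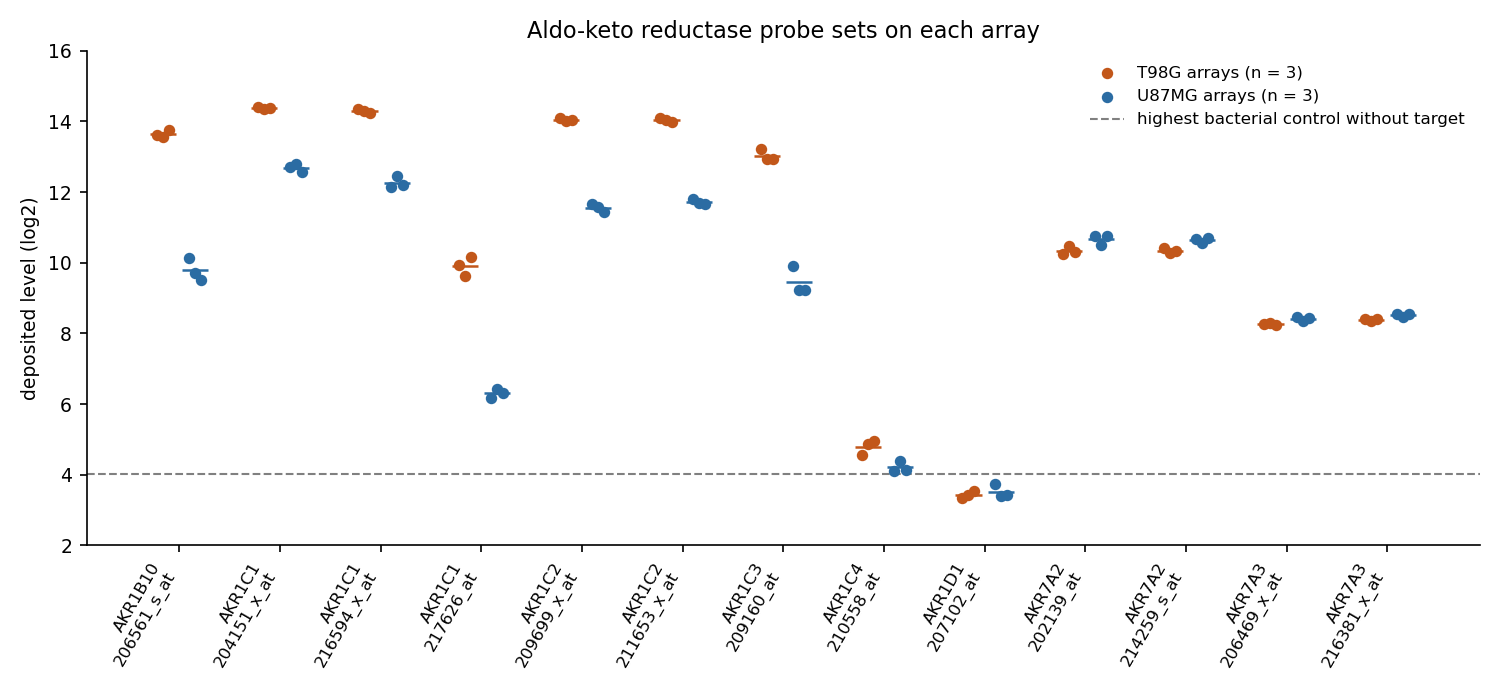
Deposited log2 level (vertical axis) of each of the 13 aldo-keto reductase probe sets (horizontal axis), with 1 point per array, T98G left and U87MG right, and short lines for the means of 3 arrays. The dashed line at 4.03 is the highest reading of bacterial controls without target. T98G points lie clear above U87MG points for AKR1B10, AKR1C1, AKR1C2 and AKR1C3, AKR1D1 lies under the dashed line in both lines, and AKR7A2 and AKR7A3 points nearly meet.

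AKR1B10, which reduces retinaldehyde and lipid-derived aldehydes, had the largest difference of the family. Its probe set 206561_s_at read 13.61, 13.56 and 13.75 on the T98G arrays, against 10.14, 9.71 and 9.50 on the U87MG arrays. Every T98G array lay above every U87MG array, with a gap of 3.42 between the nearest ones. The means were 13.64 ± 0.09 in T98G and 9.78 ± 0.33 in U87MG, a difference of 3.86 (SE 0.16, 95% interval 3.49 to 4.22), or 14.5-fold. By absolute difference it ranked at place 224 among the 22215 probe sets. The transcript was also well above the control probe sets in U87MG, so the fold is not set by the bottom of the scale. This single probe set ends in _s_at, the platform's mark for probes that can match several transcripts, and binding of related transcripts was not tested. In the genome AKR1B10 stands on chromosome 7 between the coding genes AKR1B1 and AKR1B15. No upstream sequence was at hand for AKR1B10.

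The AKR1C enzymes are hydroxysteroid dehydrogenases encoded by neighbouring genes on chromosome 10. AKR1C1, AKR1C2 and AKR1C3 follow each other directly among coding genes, and AKR1C4 comes next after AKR1C8. AKR1C1 inactivates progesterone, AKR1C2 reduces dihydrotestosterone to a weak androgen, AKR1C3 makes testosterone from androstenedione and also prostaglandin F, and AKR1C4 works mainly in the liver on steroids and bile acid precursors. The 100 bases before the annotated start are shown for these neighbours because AKR1C1 to AKR1C3 were higher in T98G together and AKR1C4 was not called. They come from RefSeq on GRCh38.p14, 5′ to 3′ on the strand of the gene, and capitals mark the letters ATTGG, which are a CCAAT box read on the other strand.
AKR1C1 (chr10:4963315-4963414, plus strand): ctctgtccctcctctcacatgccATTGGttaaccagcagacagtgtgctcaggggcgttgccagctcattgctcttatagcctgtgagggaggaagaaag
AKR1C2 (chr10:5003858-5003957, minus strand): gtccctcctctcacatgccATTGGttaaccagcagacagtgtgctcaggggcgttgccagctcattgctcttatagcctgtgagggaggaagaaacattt
AKR1C3, first of its annotated starts (chr10:5048681-5048780, plus strand): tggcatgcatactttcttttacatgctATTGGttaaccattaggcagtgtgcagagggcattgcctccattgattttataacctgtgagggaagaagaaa
AKR1C4 (chr10:5196737-5196836, plus strand): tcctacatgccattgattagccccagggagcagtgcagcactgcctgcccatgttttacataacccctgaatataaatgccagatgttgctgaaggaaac

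Over the 250 bases before the start, AKR1C1 and AKR1C2 were 96.5% identical in a global alignment, AKR1C1 and the AKR1C3 start shown were 72.4% identical, and AKR1C1 and AKR1C4 were 64.0% identical. The search covered CCAAT on both strands and found it 77 bases before the start in AKR1C1, 81 in AKR1C2 and 73 in AKR1C3, and not in the 250 bases of AKR1C4. CCAAT is common, being present on either strand of 32.0% of 35116 promoter windows of the same length. The core letters of the antioxidant response element to which NRF2 binds, TGACNNNGC on either strand, were present in 10.9% of those windows. None of the windows of AKR1C1, AKR1C2, AKR1C3 and AKR1C4 held these letters, which says only that they are not in this stretch. The letters of a TATA box, TATAAA on either strand, were also searched and were present in 10.7% of the windows. They were found 29 bases before the start in AKR1C4, on the strand of the gene, and 26 before the AKR1C3 start shown, on the opposite strand. They were not found in AKR1C1 or AKR1C2. The other annotated AKR1C3 start had CCAAT 86 bases before it and no TATAAA. No member window held both CCAAT and TGACNNNGC, and a match is a string of letters and not a shown binding site.

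AKR1C3 had a difference nearly as large as AKR1B10. Probe set 209160_at read 13.21, 12.95 and 12.93 in T98G, against 9.92, 9.23 and 9.22 in U87MG. The lines did not overlap and stood 3.01 apart at their nearest arrays. The means were 13.03 ± 0.16 in T98G and 9.46 ± 0.40 in U87MG, a difference of 3.57 (SE 0.19), or 11.9-fold. Its identifier does not mark it as a probe set that matches several transcripts.

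AKR1C1 was represented by 3 probe sets that gave the same direction and different sizes. Probe set 217626_at read 9.93, 9.62 and 10.16 in T98G, against 6.18, 6.42 and 6.32 in U87MG, a difference of 3.60 (SE 0.15, 95% interval 3.26 to 3.93) or 12.1-fold. Probe set 204151_x_at read 14.41, 14.35 and 14.39 in T98G, against 12.70, 12.79 and 12.57 in U87MG, a difference of 1.70 (SE 0.10, 95% interval 1.47 to 1.92) or 3.24-fold. The T98G arrays were above all U87MG arrays on both. Probe set 216594_x_at read 14.35, 14.28 and 14.23 in T98G, against 12.15, 12.46 and 12.19 in U87MG, a difference of 2.02 (SE 0.11, 95% interval 1.77 to 2.28). The interval of 217626_at did not reach those of the other AKR1C1 probe sets. Both 204151_x_at and 216594_x_at carry identifiers ending in _x_at, the platform's mark for probes that can also bind other transcripts, and their T98G values lay close to 14.93, the highest value in the whole table. The part of shared binding or of a bounded scale in the smaller differences was not tested.

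AKR1C2 was measured by a pair of _x_at probe sets. Probe set 209699_x_at read 14.10, 14.01 and 14.05 in T98G, against 11.65, 11.57 and 11.43 in U87MG, a difference of 2.50 (SE 0.10, 95% interval 2.27 to 2.73) or 5.67-fold. Probe set 211653_x_at read 14.10, 14.05 and 13.99 in T98G, against 11.82, 11.68 and 11.67 in U87MG, a difference of 2.32 (SE 0.10, 95% interval 2.10 to 2.54). The lines were separate on both, and the intervals of the pair overlapped. AKR1C1 and AKR1C2 transcripts are close relatives, so these probe sets may report on both, and the levels of AKR1C1 and AKR1C2 remain uncertain as single genes. Leaving out identifiers ending in _x_at, _s_at or _a_at left 5 member probe sets, of which 2 were higher in T98G by the same label, 217626_at for AKR1C1 and 209160_at for AKR1C3. Without them AKR1B10, AKR1C2 and AKR7A3 had no probe set.

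AKR1C4 and AKR1D1, whose main known site is the liver, sat near the bottom of the scale in both lines. AKR1C4 read 4.55, 4.88 and 4.97 in T98G, against 4.10, 4.39 and 4.14 in U87MG, all above 4.03. The arrays did not overlap but were only 0.16 apart at the nearest, and the difference was 0.59 (SE 0.14, 95% interval 0.27 to 0.90), below 2-fold. AKR1D1, the steroid reductase of bile acid synthesis, read 3.35, 3.42 and 3.55 in T98G, against 3.72, 3.39 and 3.43 in U87MG. All 6 arrays were under 4.03, the highest reading of controls without target, and the lines overlapped, so no fold is given. Liver marker ALB was at 4.28 ± 0.21 in T98G and 4.34 ± 0.09 in U87MG, the lowest means of the 7 hepatocyte markers. The highest, those of CYP3A4, were 8.01 in T98G and 7.63 in U87MG, so the levels of these markers differed widely.

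AKR7A2 and AKR7A3 were at similar levels in both lines, slightly lower in T98G. AKR7A2 reduces succinic semialdehyde, a product of GABA breakdown, and both enzymes reduce the dialdehyde of aflatoxin. AKR7A2 read 10.26, 10.46 and 10.30 in T98G, against 10.76, 10.50 and 10.75 in U87MG on probe set 202139_at, where the nearest arrays of the lines differed by 0.04. Its difference was -0.33 (SE 0.11, 95% interval -0.59 to -0.07), and probe set 214259_s_at gave -0.30 (95% interval -0.52 to -0.08). AKR7A3 had 8.27 ± 0.04 in T98G and 8.42 ± 0.05 in U87MG on 206469_x_at, a difference of -0.15 (95% interval -0.36 to 0.07), and -0.13 on 216381_x_at (95% interval -0.34 to 0.08). Both AKR7A3 identifiers end in _x_at. AKR7A3 and AKR7A2 are neighbours on chromosome 1, in that order. AKR7A2 was the member whose upstream window held the core letters TGACNNNGC, at 3 places from each of its 2 annotated starts, and it is shown because it had these letters and was not called.
AKR7A2, first of its annotated starts (chr1:19312145-19312244, minus strand), with the match 97 bases before the start in capitals: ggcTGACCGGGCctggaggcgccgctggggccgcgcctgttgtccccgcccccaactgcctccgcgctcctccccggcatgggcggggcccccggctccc

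**Figure D2:**
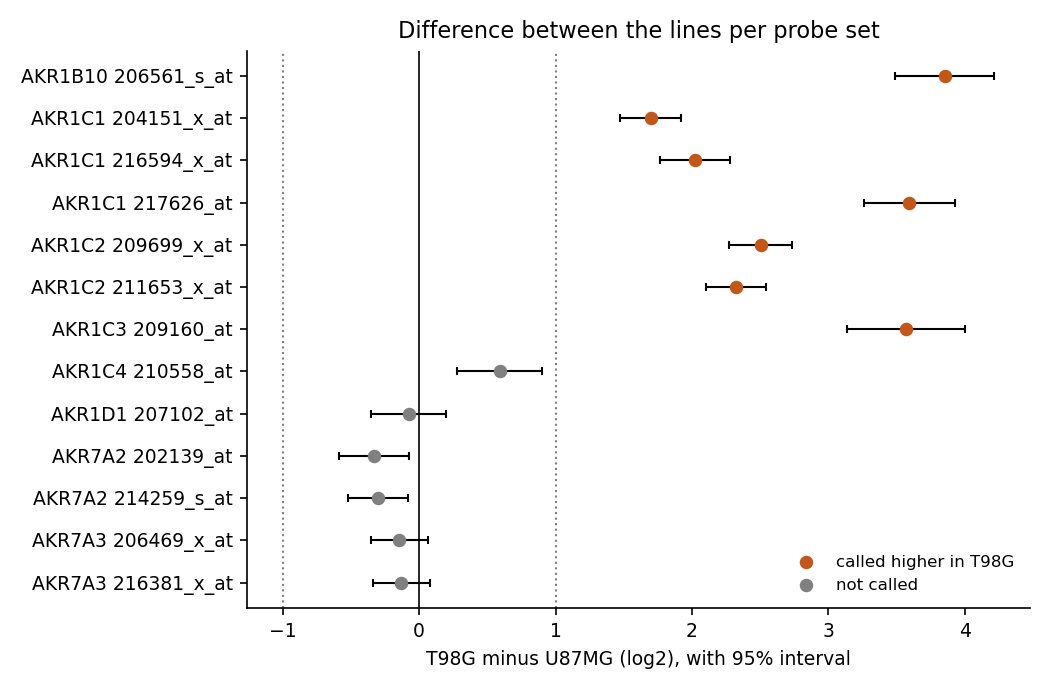
Difference T98G minus U87MG on the log2 scale (horizontal axis) for each of the 13 probe sets (rows), with 95% intervals from the limma fit on 3 arrays per line. Dotted lines mark 2-fold. The 7 probe sets of AKR1B10, AKR1C1, AKR1C2 and AKR1C3 lie right of the 2-fold line, between 1.70 and 3.86, and the other 6 lie between the dotted lines.

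Arrays of a line agreed closely for most members, with SDs of 0.03 to 0.40, and the widest were those of AKR1C3 and AKR1B10 in U87MG. U87MG replicate 1 was the highest of its line for both genes, 0.46 above the line mean for AKR1C3. U87MG replicate 3 lay below its line mean for 6 of the 7 called probe sets, with a median of -0.11. NFE2L2, which encodes NRF2, was likewise highest on U87MG replicate 1 and lowest on replicate 3 (10.96, 10.63 and 9.95 for replicates 1, 2 and 3). The poly-A controls had the same order. Not all transcripts shared it. Of the 7 called probe sets, 5 lay above the line mean on U87MG replicate 1. AKR1C1 was lowest there on 217626_at (6.18, 6.42 and 6.32) and on 216594_x_at (12.15, 12.46 and 12.19). Among classic NRF2 targets, SLC7A11 (11.68, 11.17 and 10.25) had the order of NFE2L2, whereas ABCC3 (7.58, 7.94 and 8.41) was highest on replicate 3. The part of the poly-A controls in the spread was not tested. Without U87MG replicate 1 the differences of AKR1B10 and AKR1C3 were 4.03 and 3.80, and without U87MG replicate 3 they were 3.72 and 3.45.

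**Figure D3:**
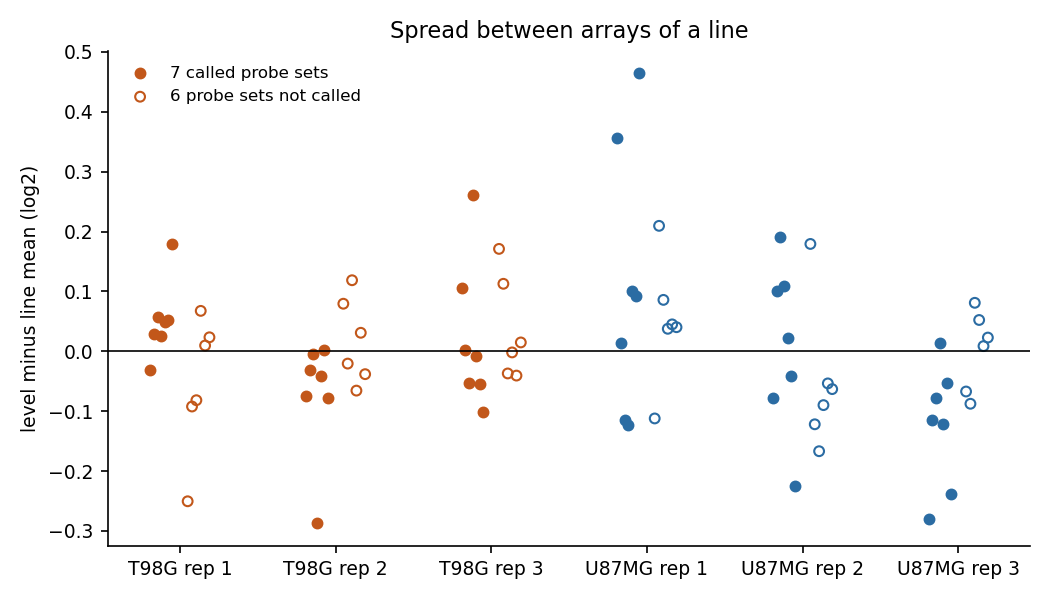
Level minus the mean of its line on the log2 scale (vertical axis) for each array (horizontal axis), with 1 point per probe set, filled for the 7 called members and open for the 6 others. The filled points of U87MG replicate 1 reach 0.46 (AKR1C3), and 6 of the 7 of U87MG replicate 3 lie below 0.

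Profiles over the 6 arrays were compared with that of AKR1B10 after subtraction of each gene's own mean. The genes outside the family with the smallest root-mean-square distance were PDE5A and GPRC5B (both 0.14 log2 units), TBX3 (0.15), GRAMD2B (0.17) and FNBP1L (0.18). PDE5A, a cyclic GMP phosphodiesterase, read 8.21, 8.45 and 8.66 in T98G, against 5.03, 4.50 and 4.08 in U87MG. Within the family the nearest were AKR1C3 at 0.20 and AKR1C1 on 217626_at at 0.30. With 3 arrays in each of 2 lines, the distance mostly measures how alike the difference between the lines is.

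Called genes around the family in carbonyl and steroid metabolism lay on both sides. Each gene was read on its probe set with the highest mean, and by that reading 7.01% of 11963 genes were called higher in T98G and 6.56% lower, with a median difference of 0.01. Other members of the same protein fold are the potassium channel subunits KCNAB1, KCNAB2 and KCNAB3. Of these 3, 0 were called higher by limma (2 at an unadjusted p under 0.05) and KCNAB1 was lower in T98G (5.75 ± 0.65, against 7.07 ± 0.07 in U87MG, difference -1.32, limma adjusted p = 0.00412). KCNAB1 was not called without T98G replicate 3, and the other 3 of its 4 probe sets were not called.

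Among short-chain and other carbonyl reductases, which act on overlapping substrates, 2 were higher and 3 lower of 16 measured (median 0.03). CBR1, the main cytosolic carbonyl reductase, had 9.56 ± 0.15 in T98G and 11.27 ± 0.11 in U87MG (difference -1.72, limma adjusted p = 4.64e-06). CBR4, a mitochondrial reductase, was lower by a difference of -2.07 and DHRS3, which reduces retinaldehyde, by -1.50 (limma adjusted p = 7.78e-06 and 0.00203). The quinone reductase genes NQO1 and NQO2 were higher in T98G, at differences of 1.42 and 2.17 (limma adjusted p = 1.35e-05 and 1.54e-06). CBR1 and DHRS3, whose substrates overlap with those of AKR1B10 and the AKR1C enzymes, were lower in T98G where those members were higher. The list as a whole had no such direction, with 6 genes higher and 6 lower at an unadjusted p under 0.05. CBR3 and DCXR were among the higher ones, at differences of 0.43 and 0.93, below 2-fold. DHRS2, also below 2-fold at a difference of 0.48, had 1.31 on its other probe set, which was called.

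Of 29 measured genes of steroid and bile acid metabolism, 3 were higher, 1 lower and 25 neither (median 0.06). STS, counted as neither, had differences of -1.21 to -0.34 over its 4 probe sets, of which 3 were not called. SRD5A1, the steroid reductase that makes dihydrotestosterone, was higher in T98G on all 3 of its probe sets (10.48 ± 0.13, against 9.18 ± 0.12 in U87MG, difference 1.31, limma adjusted p = 2.25e-05). HSD17B2, which inactivates testosterone and oestradiol, was at least 4.77-fold higher (6.68 ± 0.38, against 4.41 ± 0.38 in U87MG, limma adjusted p = 6.35e-05), a bound because 1 array was under 4.03 and was set to it. HSD17B7, of cholesterol synthesis, was higher by 1.13 and HSD17B12, of fatty acid elongation, lower by a difference of -1.61 (limma adjusted p = 4.47e-04 and 3.68e-05).

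Of 8 measured genes of the polyol pathway and the handling of sugar aldehydes, limma called 0 higher, 1 lower and 7 neither (median -0.02). At an unadjusted p under 0.05, 1 was higher and 3 were lower, the called gene included. The called gene was ALDOC, a brain aldolase, with 6.95 ± 0.08 in T98G and 8.60 ± 0.20 in U87MG (limma adjusted p = 8.89e-06). GLO1, which removes methylglyoxal, had a difference of 0.22 and was not called. Of 11 prostaglandin genes, 2 were higher, 2 were lower and 7 were not called (median 0.04). PTGFR, the receptor for prostaglandin F, was at least 23.4-fold higher in T98G (8.75 ± 0.29, against 4.19 ± 0.19 in U87MG, limma adjusted p = 1.00e-07). TBXAS1, thromboxane synthase, was 4.39-fold higher in T98G (limma adjusted p = 4.38e-05). The cyclooxygenase gene PTGS2 was at least 5.98-fold lower in T98G (4.02 ± 0.32, against 6.72 ± 0.26 in U87MG, limma adjusted p = 5.18e-06). The prostaglandin E synthase gene PTGES was lower by a difference of -2.11 (limma adjusted p = 4.23e-06). Its other probe set, also called, had a difference of -4.67.

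NRF2 and its classic targets outside the family had 9 genes higher, 2 lower and 10 neither of 21 measured (median 0.86), with 5 higher under limma's treat and 14 at a 1.5-fold minimum, a list whose direction was already known from these arrays. NFE2L2 itself read 12.32, 12.18 and 12.45 in T98G, against 10.96, 10.63 and 9.95 in U87MG (difference 1.80, limma adjusted p = 2.55e-04), and its inhibitor gene KEAP1 had a difference of -0.10 (adjusted p = 0.516) and was not called. The epoxide hydrolase gene EPHX1 and the exporter gene ABCC3 had differences of 3.46 and 3.21, and GCLC, a glutathione synthesis enzyme, had 2.26 (limma adjusted p = 6.95e-08, 4.60e-06 and 1.89e-06). HMOX1, which degrades haem, and the exporter gene ABCC2 were lower in T98G, with differences of -2.44 and -1.44 (limma adjusted p = 1.40e-05 and 1.82e-05).

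**Figure D4:**
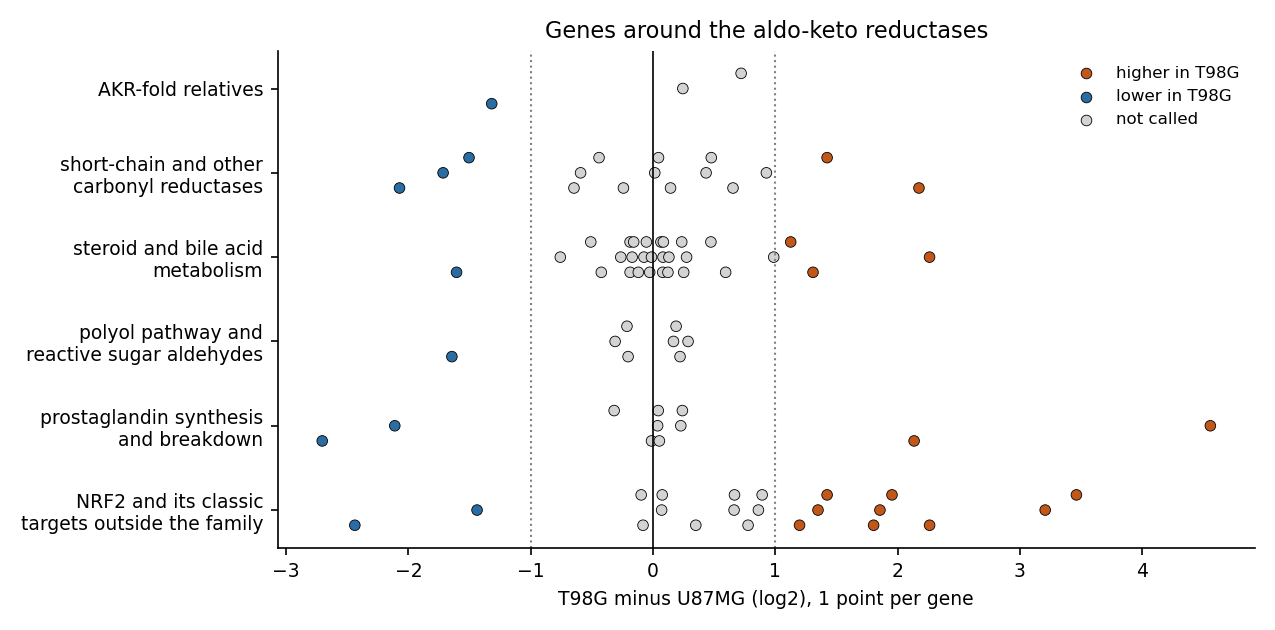
Difference T98G minus U87MG on the log2 scale (horizontal axis) for the measured genes of 6 lists around the family (rows), with 1 point per gene on its probe set with the highest mean, coloured where called. Dotted lines mark 2-fold. Called genes lie on both sides in the carbonyl reductase, steroid and prostaglandin rows, while the NRF2 row has 9 called genes on the right and 2 on the left.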

How the data were processed

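Biotin-labelled RNA of T98G and U87MG cells was measured on 3 Affymetrix arrays per line. The deposited values are log2 levels, 1 per probe set. Per the submitters' processing notes RMA and limma were used; their versions and settings are not given in the sources used here. This method equalises arrays and can compress differences of dim transcripts. Detection calls were not used here, and the number of arrays limits the precision (median residual SD 0.15).

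Of 22277 probe sets, 62 were controls, 19064 had 1 gene in the platform annotation of 2016, 1043 had several and 2108 had none listed. Entrez identifiers linked 19052 of these to current symbols in the RefSeq table of GRCh38.p14. T98G was compared with U87MG with limma 3.58.1 (R 4.3.3). The moderated test of lmFit and eBayes was two-sided with 4 residual degrees of freedom, and p-values were adjusted by Benjamini and Hochberg's method over 22215 probe sets. On simulated data for T98G against U87MG with 22215 probe sets, calls with the true sign were made for 92 of 100 probe sets moved by log2 1.5 and for 100 of 100 moved by log2 3, and 0 calls were false. The simulated noise was independent and normal and only these probe sets were moved, whereas 12.3% of probe sets were called on the arrays. The simulation checks the code and gives no error rate for the real calls. A lower bound for a fold set values under 4.03, the highest reading of 3 bacterial tryptophan control probe sets, taken as having no target, to 4.03. Promoter windows and gene order came from RefSeq on GRCh38.p14, with 9 of the 10 members matched to windows, and no coordinate was joined to the arrays.

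The members and lists were chosen with earlier results of these data known. Genes named from a list were up to 3 called per direction by size of difference. Genes alike in profile were the 5 nearest to the member with the largest difference, by brightest probe set. Samples were grouped by the line in their titles. Alternatives were other normalizations, call rules, variance models and units of the fit, a filter on dim probe sets (mean over 7.63 in at least 1 line), the replicate number as a block, and each array left out.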

Additional observations from a re-analysis of the deposited data

How the results depend on the processing

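The 7 members higher in T98G and 0 lower were found again when any 1 array was left out (7 in each case), after median centring or quantile normalization, with an intensity trend, among brighter probe sets and under limma's treat. With 1 unit per gene instead of probe sets, 4 were higher, whether read on the brightest probe set or on an average of all its probe sets, since the 7 belong to 4 genes. Without multiply matching probe sets 2 of the remaining 5 were higher. With no minimum fold 8 were higher and 2 lower, the lower ones being the AKR7A2 probe sets. The 143 refits of single members all kept their side of the call. Among these, the replicate block and the intensity trend left every difference unchanged by construction, so only the calls could move. Setting values under 4.03 to 4.03 could change only AKR1D1. Leaving out arrays gave 3.72 to 4.03 for AKR1B10 and 3.45 to 3.80 for AKR1C3. Of the 87 measured genes of the related lists, 15 were higher and 10 lower, where 7.01% and 6.56% of all genes were. Of the 15, 9 were in the NRF2 list, whose direction was already known from these arrays. Leaving out arrays gave 15 to 16 higher and 9 to 10 lower. For NRF2 and its targets, 9 higher became 5 with treat, 14 at the 1.5-fold minimum and 15 with none. Over all these lists treat gave 9 higher, the 1.5-fold minimum 25 higher, and no minimum fold 29 higher and 16 lower, by construction of the rules. Over all probe sets, treat called 661 higher and 675 lower, against 1406 and 1317 in the comparison as reported, the 1.5-fold minimum 2825 and 2630, and no minimum fold 4382 and 3963. With the replicate block 7 members and 15 listed genes were higher and 10 listed genes lower. Same-numbered arrays correlated at 0.15, 0.08 and 0.08 in their deviations from the line means, so the numbers were not taken as pairs, although each array correlated best with the array of its own number in the other line. Brightness near the floor limits AKR1C4 and AKR1D1, and probes that may match several transcripts limit AKR1B10, AKR1C1, AKR1C2 and AKR7A3.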
